A study of Mus musculus with 9 samples.

Results

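The genes described here are the mouse major histocompatibility complex (MHC) genes, their antigen-presentation partners and the guanylate-binding protein genes, in colon RNA from irradiated and control mice. They were chosen by symbol: names starting with H2- (2 names ending in -ps were left out), names made of Gbp and a number (Gbp2b was kept), and B2m, Tap1, Tap2, Tapbp, Psmb8, Psmb9, Ciita, Cd74 and Nlrc5. The rule found 54 of the 33539 genes in the table. They are 24 class I genes, 9 class II genes, 11 Gbp genes, the 9 partner genes named above, and H2-Ke6, which lies in the MHC and encodes no MHC molecule. All 34 H2 genes lie on chromosome 17 (GENCODE M21 on GRCm38), and the Gbp genes form clusters of 5 on chromosome 3 and 6 on chromosome 5. Poly(A) RNA from colon tissue of wild-type male C57BL/6 mice was sequenced in 9 libraries, 1 mouse each. IR+CF-2 mice (n = 3) received 13 Gy and 4 intraperitoneal doses of CF-2 at 7.5 mg/kg, 1 h before and 24, 48 and 72 h after irradiation. IR mice (n = 3) received 13 Gy, and Con mice (n = 3) were not irradiated. Colon was taken at 84 h. CF-2 is a code name without a structure in the labels, and no group received it without irradiation. The labels give the age as 8 weeks in one place and 6 weeks in another, the irradiation as abdominal or of the whole body, and the Con injection as saline or PBS.

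MHC class I molecules carry peptides from inside the cell to the surface. The proteasome, with Psmb8 and Psmb9 as its interferon-induced subunits, cuts the peptides, the transporter Tap1/Tap2 moves them into the endoplasmic reticulum, tapasin (Tapbp) helps to load them, and B2m is the light chain. Class II molecules present peptides from endosomes, mainly on B cells, dendritic cells and macrophages, and on gut epithelium exposed to interferon-γ. Ciita switches on class II genes and Nlrc5 class I genes. Guanylate-binding proteins are GTPases, strongly induced by interferon-γ, that attack microbes inside cells.

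Promoter windows from RefSeq (GRCm38.p6, 250 bases before to 50 after the gene start) were matched for 36 of the 54 genes. Shown are 8 windows: H2-T23, H2-T3, H2-Q2 and H2-Ob, which passed the test in at least 1 comparison, H2-K1 as a classical class I gene, H2-Q7 as a related gene whose estimates ran the other way with CF-2, and H2-Aa and Gbp5 for the class II and Gbp genes. Capitals mark matches, on either strand, to the letters AANNGAAA (core of the interferon regulatory factor, IRF, site), TTCNNNGAA (the STAT site GAS), CCAAT (bound by the factor NF-Y), TGACG (part of a CRE site) and a κB site of the class I enhancer, searched as GGG, any 1 base, then ATTCCC. The windows are chr17:36032652-36032951 (minus strand) for H2-T23, chr17:36190102-36190401 (minus strand) for H2-T3, chr17:35342057-35342356 (plus strand) for H2-Q2, chr17:34238655-34238954 (plus strand) for H2-Ob, chr17:34000298-34000597 (minus strand) for H2-K1, chr17:35438905-35439204 (plus strand) for H2-Q7, chr17:34287774-34288073 (minus strand) for H2-Aa and chr3:142496684-142496983 (plus strand) for Gbp5.
H2-T23: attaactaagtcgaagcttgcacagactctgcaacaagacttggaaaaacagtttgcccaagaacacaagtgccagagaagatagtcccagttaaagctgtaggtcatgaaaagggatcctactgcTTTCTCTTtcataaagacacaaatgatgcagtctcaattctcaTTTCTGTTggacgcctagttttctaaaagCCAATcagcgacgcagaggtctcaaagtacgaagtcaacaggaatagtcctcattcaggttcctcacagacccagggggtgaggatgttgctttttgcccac
H2-T3: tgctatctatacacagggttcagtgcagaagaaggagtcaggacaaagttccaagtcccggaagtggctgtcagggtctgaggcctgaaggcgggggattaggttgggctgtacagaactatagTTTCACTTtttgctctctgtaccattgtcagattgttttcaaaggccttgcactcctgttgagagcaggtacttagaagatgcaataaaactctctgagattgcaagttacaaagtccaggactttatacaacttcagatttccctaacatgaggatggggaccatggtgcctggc
H2-Q2: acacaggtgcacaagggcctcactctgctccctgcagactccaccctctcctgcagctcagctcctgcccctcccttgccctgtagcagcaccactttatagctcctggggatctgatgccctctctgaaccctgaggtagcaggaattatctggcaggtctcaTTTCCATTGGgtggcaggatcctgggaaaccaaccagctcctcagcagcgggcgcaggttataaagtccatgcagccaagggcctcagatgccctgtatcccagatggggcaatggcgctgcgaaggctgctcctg
H2-Ob: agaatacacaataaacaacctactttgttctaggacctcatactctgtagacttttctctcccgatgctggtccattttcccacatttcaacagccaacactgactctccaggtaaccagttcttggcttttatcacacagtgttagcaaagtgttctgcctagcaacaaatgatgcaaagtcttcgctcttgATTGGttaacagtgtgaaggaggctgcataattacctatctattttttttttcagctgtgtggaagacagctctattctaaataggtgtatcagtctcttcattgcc
H2-K1: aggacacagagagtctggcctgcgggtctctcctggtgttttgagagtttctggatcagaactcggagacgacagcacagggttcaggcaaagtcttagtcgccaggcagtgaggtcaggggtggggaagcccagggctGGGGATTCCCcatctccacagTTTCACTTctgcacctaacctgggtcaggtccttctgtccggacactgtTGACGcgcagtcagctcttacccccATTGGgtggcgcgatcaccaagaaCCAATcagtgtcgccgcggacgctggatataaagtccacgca
H2-Q7: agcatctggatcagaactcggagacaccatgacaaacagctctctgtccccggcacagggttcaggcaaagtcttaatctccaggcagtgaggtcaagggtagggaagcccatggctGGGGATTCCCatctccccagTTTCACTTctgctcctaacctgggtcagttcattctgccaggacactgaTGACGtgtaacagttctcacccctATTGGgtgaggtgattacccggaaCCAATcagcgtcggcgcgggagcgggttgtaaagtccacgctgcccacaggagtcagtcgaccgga
H2-Aa: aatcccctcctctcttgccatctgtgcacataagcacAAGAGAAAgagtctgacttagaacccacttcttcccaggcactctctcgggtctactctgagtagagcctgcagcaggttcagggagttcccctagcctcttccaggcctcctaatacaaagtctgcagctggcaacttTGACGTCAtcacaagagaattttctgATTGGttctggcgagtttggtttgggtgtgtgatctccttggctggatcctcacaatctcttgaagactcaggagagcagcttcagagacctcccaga
Gbp5: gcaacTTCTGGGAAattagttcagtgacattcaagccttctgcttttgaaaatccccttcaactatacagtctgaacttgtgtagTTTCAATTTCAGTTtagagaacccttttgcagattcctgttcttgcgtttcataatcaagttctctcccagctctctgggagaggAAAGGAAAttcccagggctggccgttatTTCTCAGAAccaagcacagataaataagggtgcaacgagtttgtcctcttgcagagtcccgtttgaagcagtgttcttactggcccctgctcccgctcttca

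The IRF core was found in 5 of 5 Gbp windows, 13 of 17 class I windows, 3 of 8 class II windows and 1 of 5 partner windows, against 23.9% of all 32851 windows in the table. The letters searched first for this site were GAANNGAAA. They were replaced after their matches had been seen, because sites with a longer run of A in their first part escape them, and the counts depend on that change: GAANNGAAA was found in 2 of 5 Gbp, 8 of 17 class I, 0 of 8 class II and 0 of 5 partner windows, and in 7.52% of all windows. H2-T23, H2-T3 and H2-Q2 hold the shorter letters and not the longer ones. CCAAT was found in 14 of 17 class I and 7 of 8 class II windows (37.4% of all), TGACG in 8 of 17 class I windows (20.8% of all), and TTCNNNGAA in 2 of 5 Gbp windows (8.3% of all). The κB letters were found in H2-K1, H2-D1, H2-Q6 and H2-Q7 (0.183% of all windows). Matches to different letters overlapped in H2-Q2, H2-M10.1 and H2-Ke6, and matches to the same letters in H2-Aa, Gbp3, Gbp5 and Gbp7. These matches describe letters in the windows and are not shown to be sites.

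**Figure D1:**
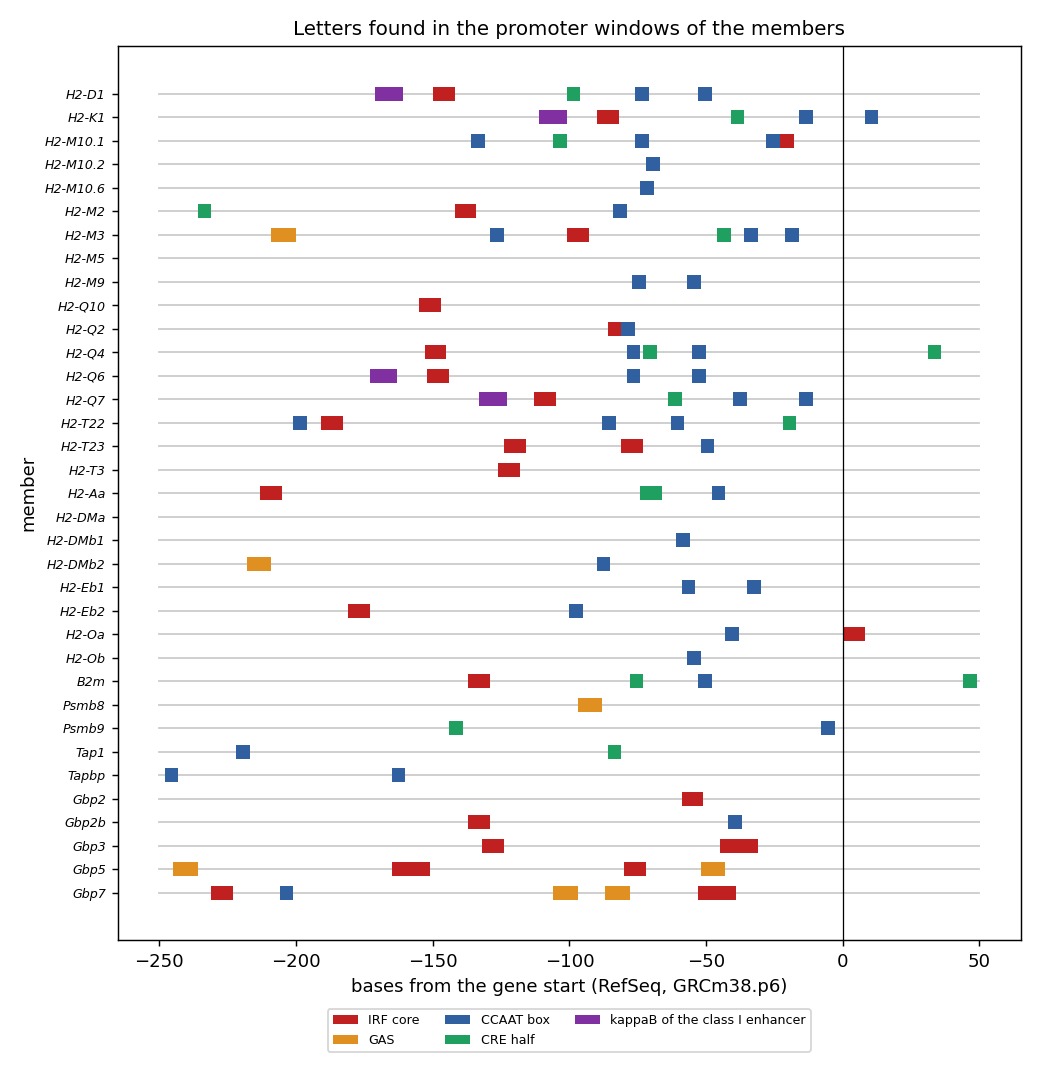
Positions of the searched letters in the promoter windows of the matched genes, in bases from the gene start; each row is 1 gene and colours mark the letters, with AANNGAAA for the IRF core. The κB letters stand 5′ of the IRF core in all 4 windows that hold them.

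Library totals were 34.4 to 44.3 M counts, so that 3 counts, taken as the floor, correspond to 0.0646 to 0.0844 CPM (counts scaled to a common library total, here TMM-scaled). Levels are in CPM. Values compared between genes are the authors' FPKM, which are per length. Log2 fold changes are given ± standard error (SE) from edgeR's quasi-likelihood test, with Benjamini-Hochberg adjusted p over the 19174 genes tested and 0.05 as the threshold. 48 of the 54 genes were tested. The other 6 (H2-Ke6, H2-M10.1, H2-M10.2, H2-M10.6, H2-M5 and H2-M9) had at most 11 counts in any library. H2-Eb2 and H2-Oa passed the filter only through their Con libraries, so a lower value elsewhere was built into their selection. On the principal components of all tested genes IR+CF-2 2 stood apart (95.2 on the second, which held 24.4% of the variance; the next library stood at 30.5), and IR 4 lay nearest to Con among the irradiated libraries on the first. Epithelial markers were present throughout, at a summed 11328 to 13772 CPM in IR+CF-2, 12278 to 15397 in IR and 13956 to 15323 in Con. Hoxa13, which marks the distal gut, had 57.3, 74.9 and 56.8 CPM in IR+CF-2, 2.73, 1.71 and 0.834 in IR, and 43.2, 1.05 and 8.07 in Con. A list of 8 gut position genes summed to 396, 1832 and 369.9 CPM in IR+CF-2, 148 to 189.7 in IR and 207 to 279.8 in Con. Of the 6 tested, 2 were called higher and 2 lower in IR+CF-2 than in Con (11.2% and 7.95% of all genes). Against IR, 1 was called higher and 1 lower in IR+CF-2 (0.0574% and 0.245% of all genes). Treatment and stretch of colon therefore cannot be told apart. In whole tissue, fewer cells of a type and less RNA per cell cannot be told apart either.

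Between IR and Con, 3 of the 48 tested genes (6.25%) fell and none rose: the class I genes H2-T23 and H2-T24 and the class II gene H2-Ob. Of all genes tested, 3.21% were called in this comparison (2.37% higher, 0.845% lower). Between IR+CF-2 and Con, 8 (16.7%) were called lower and none higher, 6 of them class I (H2-T23, H2-T3, H2-Q2, H2-Bl, H2-K2, H2-T24) and 2 class II (H2-Ob, H2-Eb2), where 19.2% of all genes were called (11.2% higher, 7.95% lower). H2-Eb2 is not read as a fall, because it passed the filter only through Con. Between IR+CF-2 and IR, edgeR called 0 of the 48, where 0.302% of all genes were called (0.0574% higher, 0.245% lower). In that comparison 12 had an unadjusted p under 0.05 (14.6% of all genes did). DESeq2 called 5 there, 2 higher (H2-M2 and H2-Q5) and 3 lower (H2-Q1, H2-Q2 and H2-T3). Of all genes DESeq2 called 452 higher and 491 lower. Groups did not overlap for 3 genes higher and 4 lower in IR+CF-2 than in IR (7.26% and 10.3% of all genes), for 2 higher and 11 lower in IR+CF-2 than in Con (20.1% and 19.6%), and for 2 higher and 20 lower in IR than in Con (22.6% and 13.8%). The 11 and the 20 genes lower than Con include H2-Eb2 and H2-Oa, whose selection through Con favoured that separation. The comparisons share libraries and are not independent. The median log2 fold change of the tested genes was -0.50 in IR relative to Con (0.01 over all genes tested), 0.50 in IR+CF-2 relative to IR (0.02) and -0.09 in IR+CF-2 relative to Con (0.02).

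**Figure D2:**
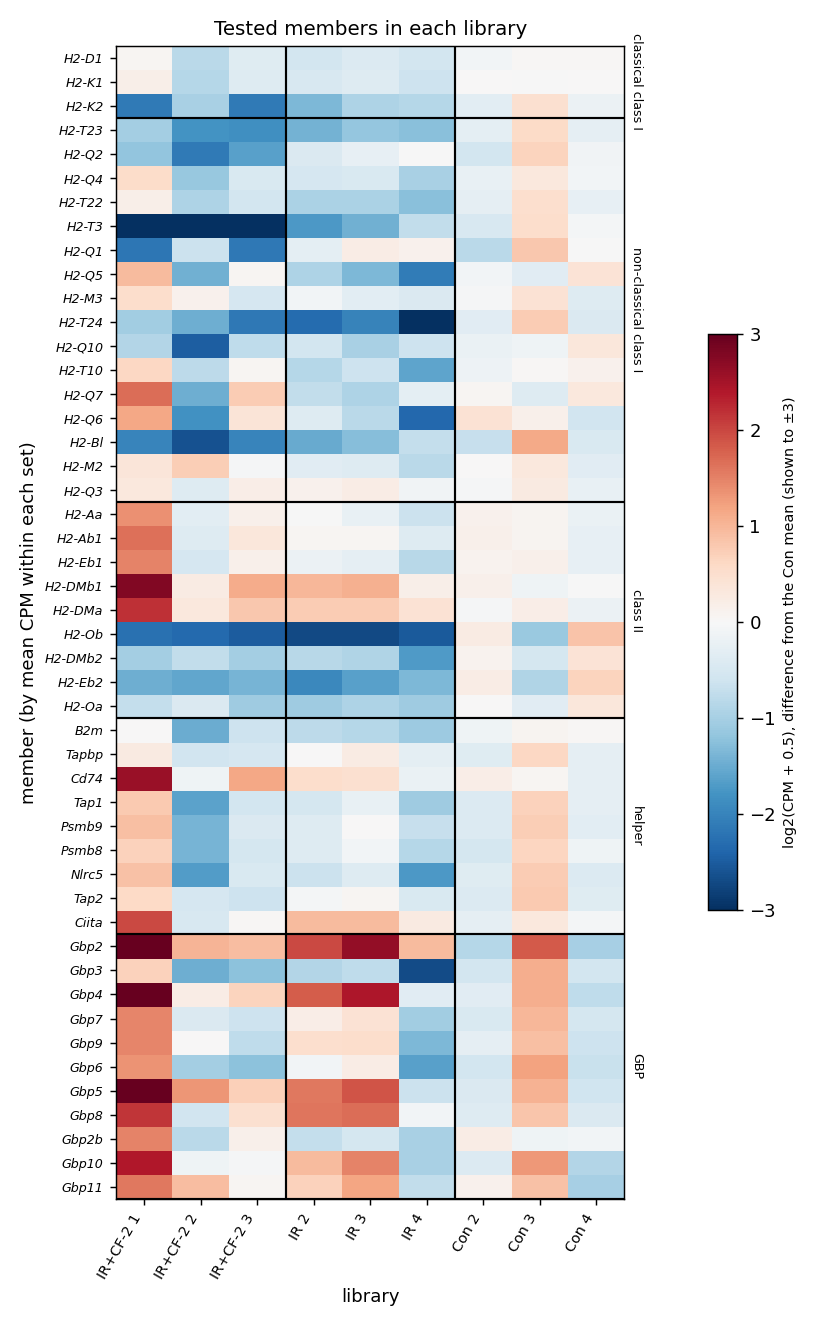
Level of each tested gene in each library, as log2(CPM + 0.5) minus the Con mean (colour, shown to ±3), with libraries in columns and genes in rows by set. Red cells of the Gbp rows stand mostly in IR+CF-2 1, IR 2, IR 3 and Con 3, and blue cells fill the irradiated columns of H2-T23, H2-T24 and H2-Ob.

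**Figure D3:**
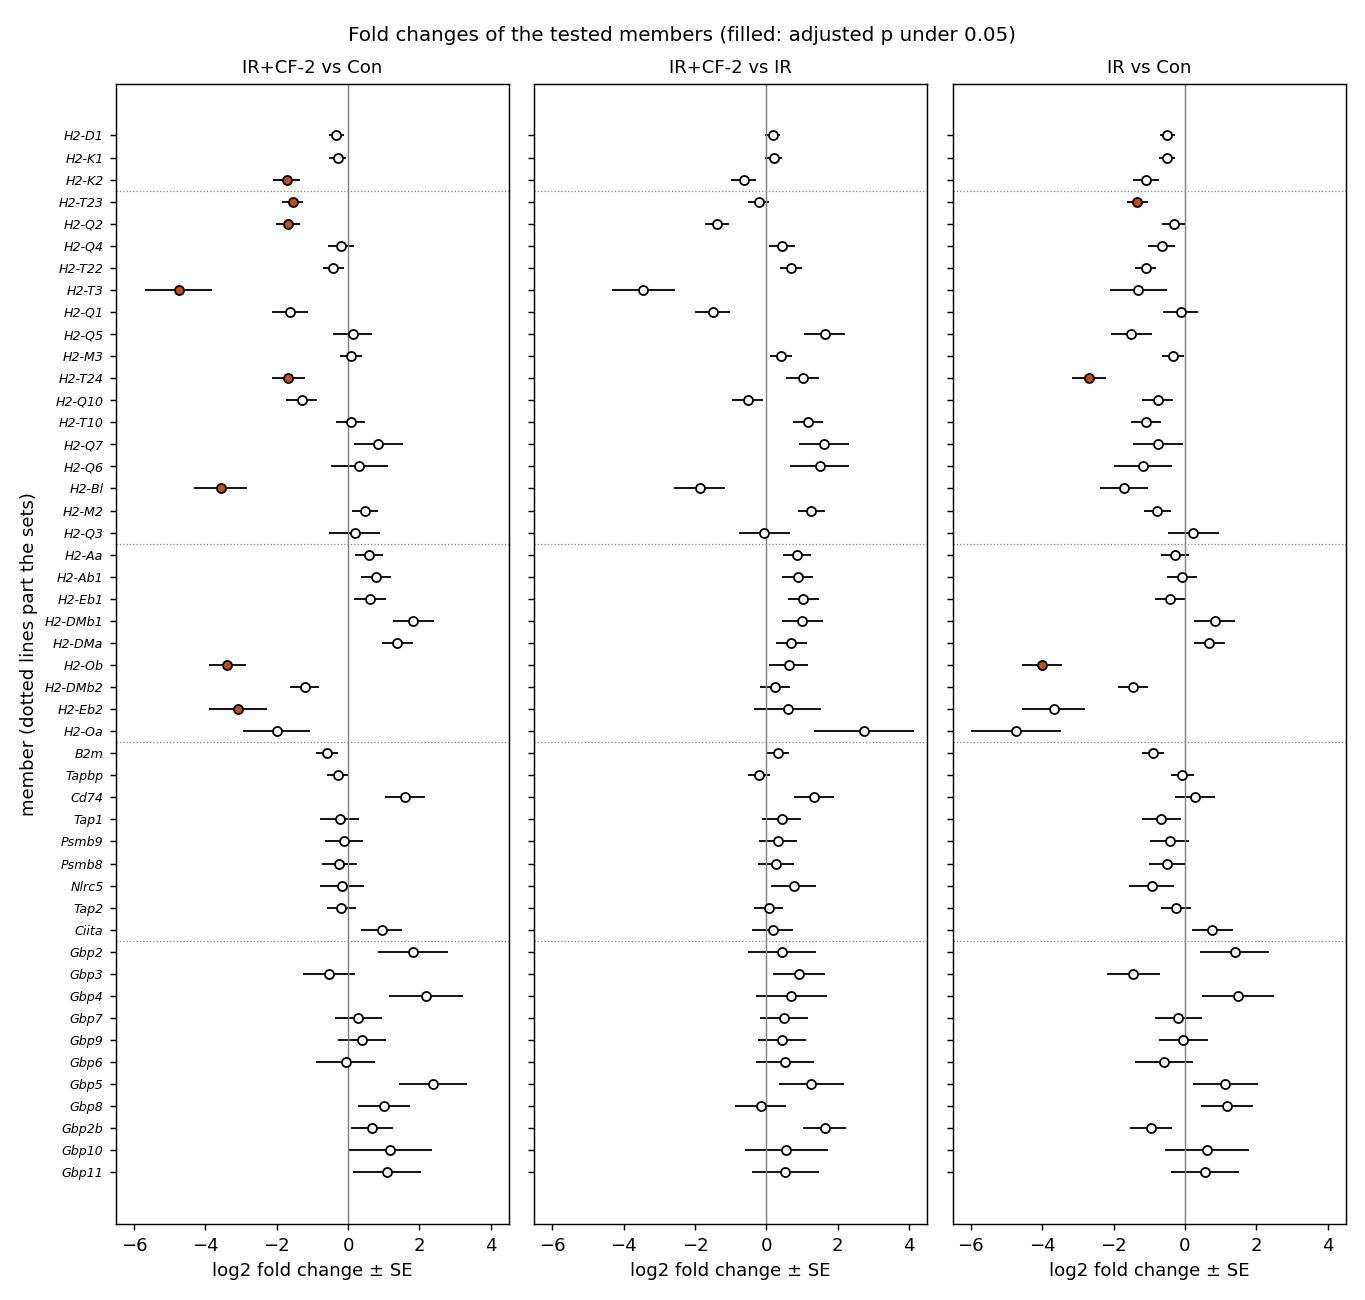
Log2 fold change ± SE (edgeR, 3 mice per group) of each tested gene in the 3 comparisons, with dotted lines between sets. Filled points passed the test: 8 in IR+CF-2 relative to Con, none in IR+CF-2 relative to IR and 3 in IR relative to Con, all below 0.

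Class I genes were lower in IR than in Con for 18 of 19 estimates, with a median of -0.77. The libraries of the groups did not overlap, with IR below, for 13 of 19, a separation that 13.8% of all genes showed. The non-classical gene H2-T23 (chr17:36029773-36032855, minus strand) encodes Qa-1, the ligand of the natural killer receptor CD94/NKG2A. It had 362, 212 and 204 CPM in IR+CF-2, 273, 325 and 308 in IR, and 598, 1082 and 603 in Con. Every irradiated library, with or without CF-2, lay below every Con library, and Con 3 was the highest. H2-T23 fell in IR by 1.33 ± 0.29 (log2, adjusted p = 0.0478, from 0.000838 to 0.224 over 14 alternatives) and in IR+CF-2 by 1.55 ± 0.29 against Con (adjusted p = 0.0137, from 3.8e-05 to 0.193). IR+CF-2 against IR gave -0.22 ± 0.29 (adjusted p = 0.771). The call against Con was lost for IR without any 1 of the 6 libraries (adjusted p from 0.0634 to 0.224), and for IR+CF-2 only with the Hoxa13 level as a covariate (0.193).

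H2-T24 (chr17:36005695-36020560, minus strand), a non-classical class I gene of the same T region, had 7.97, 5.77 and 3.46 CPM in IR+CF-2, 3.04, 3.84 and 1.67 in IR, and 13.3, 29.2 and 12.4 in Con. Con was highest without overlap, and Con 3 stood above the other Con libraries. H2-T24 fell in IR by 2.68 ± 0.47 (adjusted p = 0.0319, from 4.94e-07 to 0.151 over 14 alternatives) and in IR+CF-2 by 1.67 ± 0.45 against Con (adjusted p = 0.0345, from 0.00217 to 0.352). Each call was lost without any 1 Con library and without either of 2 irradiated ones (IR 2 or IR 3, IR+CF-2 1 or IR+CF-2 3).

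H2-T3 (chr17:36185572-36190287, minus strand) encodes the thymus leukaemia antigen, a class I molecule of intestinal epithelium that binds the CD8αα homodimer of intraepithelial lymphocytes. It had 8.02, 0.24 and 8.48 CPM in IR+CF-2, 43.3, 52.8 and 86.6 in IR, and 103, 208 and 139 in Con. The 3 groups did not overlap, with IR+CF-2 lowest and IR+CF-2 2 near the floor. H2-T3 fell in IR+CF-2 by 4.75 ± 0.93 against Con (adjusted p = 0.015, from 7.68e-05 to 0.169 over 14 alternatives). Against IR the estimate was -3.45 ± 0.88 (adjusted p = 0.14, from 0.0176 to 1.0), a call in 3 of 14 alternatives (DESeq2, and without IR+CF-2 2, alone or with IR 4). IR against Con gave -1.30 ± 0.81 (adjusted p = 0.351). Without Con 4 the call against Con was lost (adjusted p = 0.0502), as it was with no filter on low counts (0.0563).

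H2-Q2 (chr17:35342242-35346762, plus strand), a gene of the Q region, had 119, 62.2 and 87.9 CPM in IR+CF-2, 202, 229.9 and 269 in IR, and 185, 432 and 253 in Con. IR+CF-2 lay below both other groups without overlap, while IR and Con overlapped. H2-Q2 fell in IR+CF-2 by 1.69 ± 0.33 against Con (adjusted p = 0.015, from 4.96e-05 to 0.194 over 14 alternatives), and the call held without any 1 library. Against IR it gave -1.38 ± 0.33 (adjusted p = 0.118), and with the Hoxa13 level as a covariate that estimate was -0.06 ± 0.39. Hoxa13 was far higher in every IR+CF-2 library than in every IR library. The covariate therefore cannot separate stretch of colon from treatment.

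H2-K2, a transcribed pseudogene beside H2-K1, had 7.18, 16.7 and 7.21 CPM in IR+CF-2, 12.8, 17.3 and 18.1 in IR, and 26.5, 46.7 and 29.4 in Con. Both irradiated groups lay below Con, and they overlapped each other. H2-K2 fell in IR+CF-2 by 1.72 ± 0.37 against Con (adjusted p = 0.0182, from 7.18e-05 to 0.234 over 14 alternatives), a call lost without Con 3, Con 4, IR+CF-2 1 or IR+CF-2 3. H2-Bl, annotated as a polymorphic pseudogene, had 0.428, 0.0958 and 0.43 CPM in IR+CF-2, 0.787, 1.01 and 1.72 in IR, and 1.77, 7.54 and 2.18 in Con. The groups did not overlap and IR+CF-2 was lowest, 1 library near the floor. H2-Bl fell in IR+CF-2 by 3.57 ± 0.74 against Con (adjusted p = 0.0169, from 5.37e-06 to 0.189), a call lost without IR+CF-2 1 (0.0533).

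**Figure D4:**
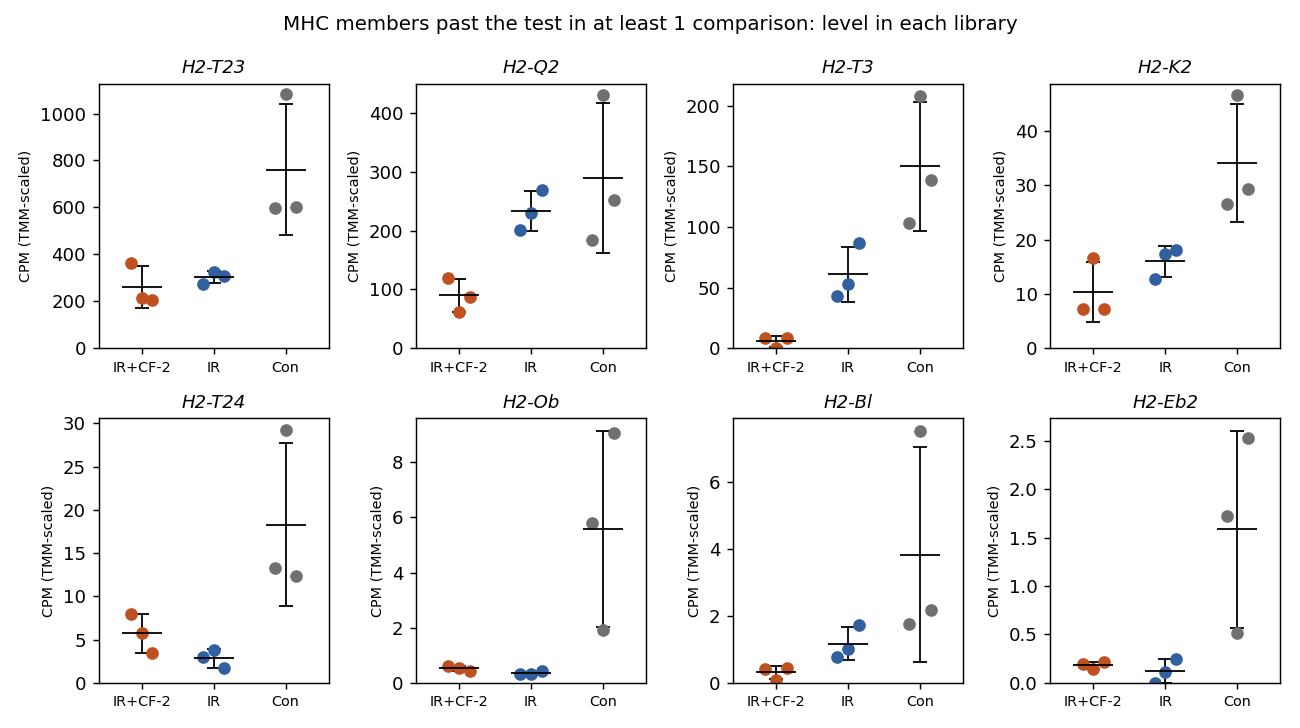
CPM of the 8 genes that passed the test in at least 1 comparison; points are libraries, lines the mean and bars the SD of 3 mice. The Con points stand above all irradiated points in every panel but that of H2-Q2, where IR and Con overlap.

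The classical class I genes and their light chain were the most abundant. H2-D1 had 569 ± 167 FPKM in IR+CF-2, 472 ± 36.7 in IR and 665 ± 24.6 in Con (SD, n = 3 each, also below). H2-K1 had 501 ± 178 FPKM in IR+CF-2, 408 ± 48.8 in IR and 573 ± 34.2 in Con. B2m had 1376 ± 658 FPKM in IR+CF-2, 1032 ± 162 in IR and 1914 ± 86.0 in Con. H2-K1 had 1963, 955 and 1309 CPM in IR+CF-2, 1234, 1315 and 1118 in IR, and 1733, 1705 and 1738 in Con. IR lay below Con without overlap, while IR+CF-2 spread across both. None of the 3 passed in the 9-library edgeR model: for IR against Con H2-K1 gave -0.50 ± 0.23 (adjusted p = 0.233), H2-D1 -0.50 ± 0.21 (0.183) and B2m -0.90 ± 0.31 (0.128). In that comparison DESeq2 called B2m lower, and edgeR fitted to the compared groups alone called all 3 lower.

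Other non-classical genes had estimates on both sides of 0 for IR+CF-2 against IR (9 above and 7 below in the non-classical set, 16 tested). H2-Q7, which encodes Qa-2, had 15.1, 1.25 and 7.73 CPM in IR+CF-2, 2.39, 2.07 and 3.45 in IR, and 4.57, 3.2 and 5.59 in Con. IR+CF-2 2 was the lowest of all libraries and IR+CF-2 1 the highest. The estimate against IR was 1.60 ± 0.70 (adjusted p = 0.339), and it passed without IR+CF-2 2. H2-Q5, a polymorphic pseudogene, gave 1.63 ± 0.57 (adjusted p = 0.244), with 26.5, 4.67 and 14.1 CPM in IR+CF-2, 6.81, 5.01 and 2.75 in IR, and 12.7, 10.6 and 18 in Con. H2-T22, a ligand of γδ T cell receptors, had 195, 89.8 and 117 CPM in IR+CF-2, 88.3, 88.5 and 72.3 in IR, and 143, 244 and 146 in Con. It was lowest in IR, without overlap with either group, at -1.10 ± 0.30 against Con (adjusted p = 0.0764). H2-Q4 had 245, 75.9 and 123 CPM in IR+CF-2, 119, 122 and 85.2 in IR, and 143, 209 and 159 in Con, and no comparison of it passed.

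Type I interferon-stimulated genes were also lower in the irradiated groups than in Con. Their summed level over 16 genes was 851 to 2396 CPM in IR+CF-2, 741 to 1519 in IR and 3771 to 8231 in Con, highest in Con 3. Against Con 13 of 16 fell in IR and 11 of 16 in IR+CF-2. Of all genes tested, 0.845% were called lower in IR and 7.95% in IR+CF-2 against Con. With IR+CF-2 set against IR the interferon-stimulated genes had a median of 0.66 and none was called. Class I estimates in that comparison lay above 0 for 11 of 19 genes and below 0 for 8. H2-T3 and H2-Q2 were among the 8. T and NK cell markers also fell (4 and 9 of 11), with summed levels of 9.32 to 13.1 CPM in IR+CF-2, 15.7 to 22.4 in IR and 36.6 to 106 in Con, and 1 of 12 markers was at 0 in all IR+CF-2 libraries and none in the other groups. The part of these genes and cells in the class I results was not tested.

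Of the class II genes, H2-Ob fell in both irradiated groups, and the I-A and DM genes passed in no comparison of the 9-library edgeR model. H2-Ob (chr17:34238903-34254414, plus strand) encodes the β chain of DO, which restrains the peptide exchanger DM and is found mainly in B cells. It had 0.619, 0.551 and 0.43 CPM in IR+CF-2, 0.309, 0.308 and 0.417 in IR, and 5.78, 1.92 and 9.04 in Con. All irradiated libraries lay below all Con libraries. H2-Ob fell in IR by 4.00 ± 0.56 against Con (adjusted p = 0.0237, from 1.14e-10 to 0.151 over 14 alternatives) and in IR+CF-2 by 3.38 ± 0.53 (adjusted p = 0.00946, from 1.21e-08 to 0.14). The IR call was lost without Con 2, Con 4, IR 2 or IR 3, and the IR+CF-2 call held without any 1 library.

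H2-Eb2, a class II β-chain gene, had 0.19, 0.144 and 0.215 CPM in IR+CF-2, 0, 0.112 and 0.25 in IR, and 1.72, 0.511 and 2.53 in Con. All irradiated libraries were below Con, and the gene passed the filter only through Con. Its estimate in IR+CF-2 against Con was -3.09 ± 0.82, a call that its selection favoured and that was lost without Con 2, Con 4, IR+CF-2 1 or IR+CF-2 3. B cell markers summed to 4.21 to 5.32 CPM in IR+CF-2, 2.61 to 4.57 in IR and 8.21 to 43.9 in Con. They fell for 6 of 8 in IR+CF-2 and 3 of 8 in IR against Con (of all genes, 7.95% and 0.845% were called lower). None of the markers was at 0 in a whole group. Con 3, the lowest Con library for H2-Ob and H2-Eb2, was also the lowest for these markers (8.21, against 30.3 in Con 2 and 43.9 in Con 4). Their part in the result was not tested. H2-Oa, the α chain of DO, had 0.143, 0.287 and 0 CPM in IR+CF-2, 0, 0.056 and 0 in IR, and 0.556, 0.332 and 0.834 in Con, and also passed the filter only through Con. H2-DMb2, the second DM β chain, had 1.19, 1.56 and 1.18 CPM in IR+CF-2, 1.43, 1.34 and 0.556 in IR, and 3.19, 1.89 and 4.03 in Con. Con was highest without overlap in both. Neither passed in the 9-library edgeR model, while DESeq2 called both lower in IR, and H2-DMb2 also lower in IR+CF-2, than in Con.

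In most of the other class II genes 1 library stood out. H2-Aa, the α chain of I-A (C57BL/6 mice make no E molecule), had 200.0, 60.8 and 85.2 CPM in IR+CF-2, 76.2, 65.9 and 48.8 in IR, and 84.1, 80.5 and 66.0 in Con. IR+CF-2 1 stood above every other library, and the remaining libraries overlapped. Its partner H2-Ab1 had 218, 52.8 and 87.8 CPM in IR+CF-2, 72.2, 72.1 and 52.3 in IR, and 77.1, 73.1 and 58.1 in Con. The same library was highest. H2-Eb1 had 183, 46.2 and 73.2 CPM in IR+CF-2, 57.8, 54.3 and 36.2 in IR, and 70.9, 72.1 and 54.6 in Con, again highest in IR+CF-2 1. For IR+CF-2 against IR the 3 gave 0.86 ± 0.39, 0.87 ± 0.43 and 1.03 ± 0.44 (adjusted p = 0.353, 0.401 and 0.329). All 9 class II estimates in that comparison were above 0, with a median of 0.86, and none passed.

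H2-DMb1, a chain of the peptide exchanger DM, had 58.7, 9.63 and 18.2 CPM in IR+CF-2, 16.6, 17.6 and 9.15 in IR, and 9.04, 7.36 and 7.96 in Con. Both irradiated groups lay above Con without overlap. IR+CF-2 against Con gave 1.83 ± 0.58 (adjusted p = 0.0565), and IR against Con gave 0.83 ± 0.57 (adjusted p = 0.397). Cd74, the invariant chain that occupies the class II groove, had 920.5, 138 and 337 CPM in IR+CF-2, 217, 210.2 and 132 in IR, and 174, 159 and 126 in Con, highest in IR+CF-2 1. It gave 1.60 ± 0.56 against Con (adjusted p = 0.0774). Ciita had 33.6, 5.7 and 8.46 CPM in IR+CF-2, 16.2, 16.3 and 10 in IR, and 6.75, 10.4 and 7.8 in Con, and gave 0.94 ± 0.58 (adjusted p = 0.285). Without IR+CF-2 2, 5 of the genes described here were called higher in IR+CF-2 than in Con (Cd74, H2-Ab1, H2-DMa, H2-DMb1 and H2-Q7). In that fit 10 were called lower, and of all genes 3585 were called higher and 3136 lower. With all libraries DESeq2 called 3 higher (Cd74, H2-DMa and H2-DMb1) and 11 lower. Of all genes it called 2857 higher and 2136 lower. Macrophage markers rose for 7 of 10 and fell for 1 in IR+CF-2 against Con (11.2% and 7.95% of all genes). They summed to 192 to 382 CPM in IR+CF-2, 176 to 204 in IR and 186 to 217 in Con, highest in IR+CF-2 2. Their part in these values was not tested.

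The FPKM ratio of Cd74 to H2-Aa, chosen after its values were seen, was 10.4, 5.14 and 8.95 in IR+CF-2, 6.46, 7.22 and 6.13 in IR, and 4.69, 4.47 and 4.33 in Con. Every irradiated library lay above every Con library. The ratio of H2-D1 to H2-K1 was 1.07, 1.19 and 1.19 in IR+CF-2, 1.11, 1.15 and 1.23 in IR, and 1.1, 1.2 and 1.18 in Con, with full overlap.

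No Gbp gene passed the test in any comparison, although Gbp2b did for IR+CF-2 against IR without IR+CF-2 2 (edgeR adjusted p = 0.046, up to 1.0 over 14 alternatives). For IR against Con 0 of 11 had an unadjusted p under 0.05 (23.9% of all genes did), for IR+CF-2 against IR 1 did (14.6% of all genes), and for IR+CF-2 against Con 1 did (35.6%). DESeq2 called none either. The libraries of the Gbp genes spread widely. Their median estimate was 0.57 in IR relative to Con (6 estimates above 0 and 5 below). It was 0.53 in IR+CF-2 relative to IR (10 above and 1 below) and 1.01 in IR+CF-2 relative to Con (9 above and 2 below). Gbp2, the most abundant by CPM, had 726, 116 and 109 CPM in IR+CF-2, 227, 362 and 112 in IR, and 31.7, 207 and 28.5 in Con. In Gbp2, Con 3 lay within the range of the irradiated libraries. IR+CF-2 against Con gave 1.83 ± 0.98 (adjusted p = 0.215).

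Gbp4 had 245, 21.6 and 29.5 CPM in IR+CF-2, 66.9, 101 and 14.5 in IR, and 14.6, 39.8 and 10.8 in Con. IR+CF-2 1 was highest and the groups overlapped. Gbp5, which promotes inflammasome assembly, had 91.5, 17.2 and 11.1 CPM in IR+CF-2, 20.8, 25.5 and 4.0 in IR, and 4.72, 14.1 and 4.14 in Con, with the same high library. It gave 2.38 ± 0.94 for IR+CF-2 against Con (adjusted p = 0.106). Gbp3 had the lowest estimate of the Gbp genes in IR relative to Con. Its levels were 218, 48.6 and 57.1 CPM in IR+CF-2, 72.5, 79.1 and 20.3 in IR, and 91.7, 288 and 90.9 in Con. IR lay below Con without overlap (-1.45 ± 0.74, adjusted p = 0.266). Gbp7 had 131, 34.6 and 30.3 CPM in IR+CF-2, 54.0, 63.2 and 22.6 in IR, and 34.1, 93.7 and 32.1 in Con. Its groups overlapped throughout. Gbp8 had 47.4, 6.85 and 14.6 CPM in IR+CF-2, 32.8, 34.2 and 9.7 in IR, and 7.81, 18.8 and 7.5 in Con. Gbp2b had 7.09, 1.05 and 2.54 CPM in IR+CF-2, 1.15, 1.4 and 0.89 in IR, and 2.66, 1.97 and 2.07 in Con. IR+CF-2 overlapped Con in both, and IR lay below Con without overlap in Gbp2b.

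The libraries ordered the Gbp genes alike. IR+CF-2 1 was the highest of its group for 11 of 11 and the highest of all 9 libraries for 10, IR 3 was highest and IR 4 lowest in IR for 11 of 11, and Con 3 was highest in Con for 10 of 11. Ifng, which encodes interferon-γ and was too low to test, had 3.19, 0.144 and 0.0861 CPM in IR+CF-2, 0.0562, 0.252 and 0.0556 in IR, and 0.0242, 0.0511 and 0 in Con. Most of these values lie at or near the floor. The Con libraries had 1, 2 and 0 counts, so no order among them can be read. IR+CF-2 1 (134 counts) and IR 3 (9 counts) were the highest of their groups. Whether interferon-γ had a part in the order of the Gbp genes was not tested.

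**Figure D5:**
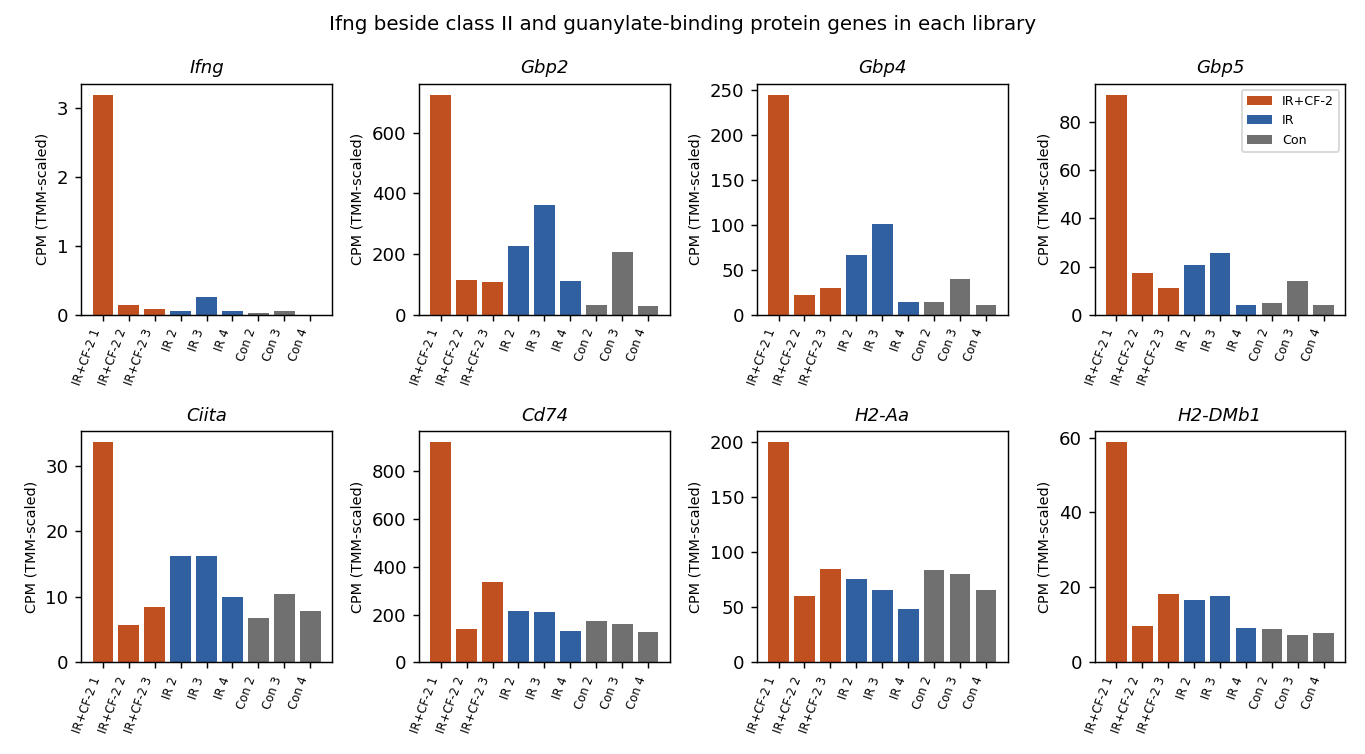
CPM of Ifng, 3 Gbp genes, Ciita, Cd74, H2-Aa and H2-DMb1; each bar is 1 library. IR+CF-2 1 is the highest bar in every panel, with 3.19 CPM of Ifng and 726 CPM of Gbp2.

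No class I partner passed in the 9-library edgeR model. Tap1 had 396, 74.8 and 156 CPM in IR+CF-2, 159, 196 and 109.5 in IR, and 172, 373 and 189 in Con. Con 3 and IR+CF-2 1 were the high libraries. Psmb8 had 127, 29.4 and 54.3 CPM in IR+CF-2, 59.3, 73.3 and 42.9 in IR, and 54.2, 123 and 71.3 in Con. Psmb9 had 146, 29.6 and 58.2 CPM in IR+CF-2, 59.5, 79.3 and 48.7 in IR, and 58.7, 131 and 62.5 in Con. Both had the same 2 high libraries as Tap1. Nlrc5 had 131, 21.6 and 51.4 CPM in IR+CF-2, 45.1, 54.0 and 20.9 in IR, and 55.1, 121 and 52.7 in Con, at -0.93 ± 0.63 for IR against Con (adjusted p = 0.39). Tap2 and Tapbp spanned 33.9 to 79.5 and 205 to 369 CPM in IR+CF-2, 38.5 to 55.0 and 247 to 362 in IR, and 39.5 to 91.5 and 236 to 471 in Con. IR+CF-2 1 was the highest of its group for 9 of 9 partner genes and IR 4 the lowest of its group for 9 of 9.

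Among 64 tested genes of interferon-γ signalling, other interferon-inducible GTPases, class I loading, class II control and class I-like families, 1 fell and 0 rose in IR against Con, 0 changed in IR+CF-2 against IR, and 5 rose and 5 fell in IR+CF-2 against Con. Of all genes tested, 3.21%, 0.302% and 19.2% were called in these comparisons. For IR+CF-2 against Con that was 11.2% higher and 7.95% lower. The medians of the 64 genes were 0.08, 0.10 and 0.16. Irf9, a subunit of the interferon-activated factor ISGF3, fell in IR by 1.02 ± 0.18 (adjusted p = 0.0329) and in IR+CF-2 by 0.96 ± 0.18 against Con (adjusted p = 0.0137). Ifngr2, a chain of the interferon-γ receptor, fell in IR+CF-2 by 0.88 ± 0.23 (adjusted p = 0.0316), and Marchf8, a ubiquitin ligase of membrane proteins, by 0.66 ± 0.12 (adjusted p = 0.0117). Ido1, an interferon-γ-induced tryptophan-degrading enzyme, rose in IR+CF-2 by 5.97 ± 1.76 (adjusted p = 0.0448), with 1951, 4.05 and 583 CPM in IR+CF-2, 356, 420.3 and 98.6 in IR, and 4.74, 30.1 and 5.51 in Con. IR+CF-2 2 lay below every Con library, so that the groups overlapped, and the estimate ran from 3.00 to 7.88 over the alternatives. The co-stimulatory gene Cd80 (2.18 ± 0.63), the proteasome activator Psme3 (1.10 ± 0.25), Procr (1.29 ± 0.37) and the NKG2D ligand Raet1e (0.82 ± 0.23) also rose in IR+CF-2 against Con, and Azgp1 (-2.88 ± 0.84) and the antibody receptor Fcgrt (-0.88 ± 0.24) fell. Of 14 alternatives, the calls for IR+CF-2 against Con were kept by 13 for Irf9, 11 for Marchf8, 7 each for Cd80, Psme3, Procr and Azgp1, 6 each for Ifngr2 and Fcgrt, and 5 each for Ido1 and Raet1e, and the IR call of Irf9 was kept by 8. Irf1 passed in no comparison.

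H2 and Gbp genes share long stretches of near-identical sequence, and how the authors' counting treated reads that fit several genes is not stated, so values of H2-K2, H2-Bl, H2-Q and H2-T genes and of single Gbp genes are uncertain to that extent. Exons also overlap: 46.3% of Gbp10 and 29.0% of Gbp6 exon bases lie in exons of Gm43302 on the same strand, and 29.4% of H2-T22 and 27.1% of H2-T10 exon bases lie opposite another gene.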

How the data were processed

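Per the labels' protocols, poly(A) RNA from mouse colon was sequenced as paired-end libraries. The deposited table holds counts per gene and FPKM in 9 columns, 1 per library, all matched by name to the labels (0 columns were left unused). The authors made the count and FPKM values, and the submitters' processing notes name HISAT2, featureCounts, DESeq2, GRCm38 and mm10. Not given in the sources used here are versions, the annotation, strandedness and the handling of multi-mapped reads.

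The tests on the deposited counts used edgeR 4.0.16 (R 4.3.3) with TMM scaling, filterByExpr and a robust quasi-likelihood F-test (common biological coefficient of variation 30.6%). All 9 libraries entered 1 model, whose sole term was the group. Of 33539 genes 19174 were tested and 14365 filtered out. All tests were 2-sided. The pipeline was also tested on simulated data. The replicates are labelled as biological, so each test weighs a group difference against the spread between mice within groups. That spread includes any difference in the stretch of colon taken. Alternatives were RLE scaling, no filter and a stricter filter (1 CPM in 3 libraries), DESeq2 1.42.0, the library number as a block, a fit restricted to the 2 groups compared, the level of Hoxa13 as a covariate, and each library left out in turn. Leaving out IR 4 and IR+CF-2 2 together was added after seeing the data.

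Genes named with values are those called in any comparison, the 4 most abundant of each set, the tested genes with a mean of at least 1 CPM and the largest fitted change in each direction, and all 9 partner genes. The genes and gene lists were chosen with earlier results of these data known. Coordinates are from GENCODE M21 on GRCm38 and promoter sequences from RefSeq (GRCm38.p6). In the promoter search the IRF letters AANNGAAA replaced GAANNGAAA after the matches of the first search had been seen, and both results are given.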

Additional observations from a re-analysis of the deposited data

How the results depend on the processing

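Numbers of genes called (616, 58 and 3677 for IR against Con, IR+CF-2 against IR and IR+CF-2 against Con) and of the genes described here (3, 0 and 8) depended on the processing. With RLE scaling 277 genes were called for IR against Con. With no filter 339 and 121 were called in the first and second comparison. DESeq2 called 2110 and 943 genes there, and 10, 5 and 14 of those described here. A fit of the compared groups alone called 2307 and 6 genes, and 12 of those described here for IR against Con. The Hoxa13 covariate left 34, 0 and 6 genes and 0, 0 and 0 of those described here, so that all 11 calls were lost (adjusted p from 0.0612 to 0.352), although 4 estimates lay farther from 0 than without it (H2-T23 and H2-T24 in IR, -1.65 and -2.96, and H2-Ob and H2-Eb2 in IR+CF-2, -4.11 and -3.60, all against Con) and the other 7 lay nearer (from -3.88 for H2-T3 to -0.83 for H2-Q2). Hoxa13 was higher in every IR+CF-2 library than in every other library, so this covariate cannot separate stretch of colon from treatment. Leaving out both IR+CF-2 2 and IR 4, chosen after seeing the data, gave 4717, 480 and 7838 genes, with 12, 2 and 16 of those described here. With 1 library left out, also fewer mice in a group, genes called ranged from 1 to 1191, from 5 to 597 and from 685 to 6721, and those described here from 0 to 3, from 0 to 5 and from 4 to 15. The lowest counts of the described genes for IR against Con (0) came without Con 2, Con 4, IR 2 or IR 3, and the highest (5 and 15) with IR+CF-2 2 left out.

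The median over the described genes changed sign for IR+CF-2 against IR (0.50), to -0.12 without IR+CF-2 1 and to -0.40 with the replicate block, and for IR+CF-2 against Con (-0.09) it ran from -0.87 to 0.48. Of 153 values of the 11 called results under alternatives, 104 kept the call, 49 lost it in the same direction and 0 turned. Of 1271 values of uncalled results 42 gained a call. The replicate block called 944, 6 and 462 genes and 4, 0 and 6 of those described here, Psmb9 and Tap1 among those lower in IR+CF-2 than in Con (adjusted p = 0.0454 and 0.0475). It gave adjusted p of 0.0598, 0.0589, 0.127 and 0.179 for the IR+CF-2 calls of H2-T3, H2-T24, H2-K2 and H2-Eb2 against Con. Correlations of same-numbered deviations were 0.259, 0.108 and 0.0891 for IR with Con, and 0.124 and 0.0397 for IR+CF-2 with IR. For IR+CF-2 with Con they were 0.202 and 0.0402. Differently numbered libraries were not compared, so these values do not settle whether library numbers pair the mice. The promoter counts for the IRF site changed with the letters searched, as given above. Depth limits H2-Oa, H2-Eb2 and Ifng, which lie near the floor in most irradiated libraries.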
